A study of Homo sapiens with 6 samples.

Results

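LIN28B and 5 genes of the microRNA pathway, DICER1, XPO5, TUT4, KHSRP and DDX17, were followed across 6 arrays of a HEK293 line in which LIN28B was depleted. These 6 genes, of 11584 genes named in the deposited table, were found as the probe sets that the platform annotation gives to them. They were chosen with the knockdown values known, so those values are given as a description with no test. HEK293 is a human embryonic kidney line, and the T-REx Flp-In cells used here carry a tagged transgene, FLAG/HA-LIN28B, that doxycycline switches on. All 3 groups carried it, with 2 Affymetrix Human Genome U133 Plus 2.0 arrays each. They were mock-transfected cells without induction, mock-transfected cells with induction, and cells without induction that were transfected with siRNA against LIN28B. The protocol's doxycycline dose is 250 ng/ml, added 15 to 20 h ahead of crosslinking, and it states no time for the cells on the arrays. No array here holds cells given a non-targeting siRNA, so transfection of siRNA and loss of LIN28B cannot be told apart in what follows. The labels do not say whether replicates were separate cultures or whether the line was 1 clone, so the p-values cover the spread from array to array, and that may be purely technical.

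LIN28B is an RNA-binding protein with a cold shock domain and a pair of CCHC zinc knuckles, known for holding back the let-7 microRNAs. A microRNA is cut out of its primary transcript in the nucleus by the Microprocessor, whose enzyme is DROSHA, exported as a hairpin by XPO5, cut again by DICER1 and loaded into an Argonaute protein. LIN28 proteins bind let-7 precursors at several of these steps, and TUT4 adds uridines to precursors that a LIN28 protein holds, which marks them for decay. The arrays measured messenger RNA and no mature microRNA, so let-7 itself was not measured.

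The let-7 family is printed first because it is the substrate for which LIN28B is best known. The family was taken by the name let-7, so any member under another name was left out. The mature 5p forms with that name in the RefSeq table (GRCh38.p14) comprise 8 distinct sequences. The seed, bases 2 to 8, is in capitals here and was the same in every one of them:
hsa-let-7a-5p: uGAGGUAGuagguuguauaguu
hsa-let-7d-5p: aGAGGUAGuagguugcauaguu
hsa-let-7g-5p: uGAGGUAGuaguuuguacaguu
hsa-let-7i-5p: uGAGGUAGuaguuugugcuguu

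The zinc knuckles of LIN28 proteins read the letters GGAG in the loop side of the precursor. Of hairpins that list both mature arms in that table, GGAG lay between the arms in 8 of 10 named let-7. It did so in 60 of 739 of any name, or 8.12%. GGAG is in capitals in the first 2 hairpins below, and the other 2 are the hairpins named let-7 without it:
let-7g hairpin, chr3:52268278-52268361, minus strand: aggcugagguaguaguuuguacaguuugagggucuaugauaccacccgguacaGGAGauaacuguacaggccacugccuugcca
let-7a-1 hairpin, chr9:94175957-94176036, plus strand: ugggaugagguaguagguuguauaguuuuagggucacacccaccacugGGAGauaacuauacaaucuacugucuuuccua
let-7a-3 hairpin, chr22:46112749-46112822, plus strand: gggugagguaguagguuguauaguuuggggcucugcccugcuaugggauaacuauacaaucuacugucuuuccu
let-7b hairpin, chr22:46113686-46113768, plus strand: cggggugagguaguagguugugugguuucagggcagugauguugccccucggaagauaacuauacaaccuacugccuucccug

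LIN28B itself, the target of the siRNA, was far lower on the knockdown arrays. Its log2 values were 10.02 and 9.85 without induction, 10.15 and 10.11 with induction, and 7.51 and 7.53 after siRNA. The knockdown pair lay 2.32 below the lower array without induction and within 0.02 of each other. The log2 difference was -2.42 (SE 0.078) from cells without induction, or 18.7% of their level, and -2.61 from induced cells, or 16.4%. No other gene in the table had a lower difference from cells without induction. In bulk RNA, fewer cells holding the transcript and less of it per cell cannot be told apart.

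The induced and not induced arrays of LIN28B differed little. Both induced values lay above both values without induction, by 0.09, and 13.5% of all genes showed such a gap upward. The log2 difference was 0.19 (95% interval 0.02 to 0.37) and did not pass (unadjusted p = 0.0349, adjusted p = 0.999 by limma). Leaving out replicate 1 of the cells not induced gave 0.28, and leaving out replicate 2 gave 0.11. Whether the transgene carries the stretch that the probe set reads is not given in the labels, so this value does not check the induction. LIN28A, the paralog of LIN28B, was not analysed here.

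Among the nuclear factors, DDX17 had the largest drop after LIN28B. DDX17 is a DEAD-box RNA helicase that helps DROSHA process a subset of primary microRNAs. It read 6.81 and 6.97 without induction, 6.78 and 6.47 with induction, and 6.12 and 6.03 after siRNA. The knockdown arrays were the lowest 2, the induced arrays lay between them and the not induced pair, and the groups did not overlap (14.0% of all genes had both induced arrays below both arrays without induction). The log2 difference of the knockdown was -0.82 (SE 0.14) from cells without induction and -0.55 from induced cells, or 56.8% and 68.3% of their levels.

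KHSRP, a KH-domain protein that binds the loop of let-7 and other precursors and favours their cleavage, was the noisiest of the 6 genes in cells without induction. Its values were 6.30 and 6.67 there, 6.49 and 6.56 with induction, and 5.94 and 6.00 after siRNA. Both knockdown values lay below all 4 mock values, while the induced values fell inside the gap of 0.37 between the not induced arrays. The log2 difference was -0.52 (SE 0.15) from cells without induction and -0.56 from induced cells. Leaving out replicate 1 of the cells not induced gave -0.71, and leaving out replicate 2 gave -0.33.

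XPO5, the carrier that takes precursor hairpins out of the nucleus, had the narrowest range of the 6 genes over the mock arrays. It read 8.41 and 8.40 without induction, 8.35 and 8.31 with induction, and 7.71 and 7.73 after siRNA. All 4 mock arrays lay within 0.09, and the knockdown pair was 0.58 below the lowest of them. The log2 difference was -0.68 (SE 0.083) from cells without induction and -0.61 from induced cells, which leaves 62.3% and 65.5%.

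DICER1, the enzyme that cuts the hairpin to its mature length and whose own mRNA is a known let-7 target, was the member that moved least. Its values were 8.02 and 7.91 without induction, 8.07 and 8.04 with induction, and 7.73 and 7.89 after siRNA. The higher knockdown array lay 0.02 below the lower array without induction, and the knockdown arrays stood 0.16 apart. The log2 difference was -0.16 (SE 0.098) from cells without induction and -0.25 from induced cells. Of all genes, 29.7% had a lower difference from cells without induction than DICER1. Leaving out knockdown replicate 1 gave -0.08 and leaving out replicate 2 gave -0.24. Leaving out replicate 1 of the cells not induced gave -0.1 and leaving out their replicate 2 gave -0.21. So the size of the DICER1 difference depends on single arrays of both groups.

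TUT4, the uridylyltransferase of let-7 precursors formerly named ZCCHC11, was lower after siRNA and level between the mock groups. It read 8.77 and 8.54 without induction, 8.62 and 8.69 with induction, and 8.12 and 8.09 after siRNA. The mock arrays overlapped, and both knockdown arrays lay 0.41 or more below them. The log2 difference was -0.55 (SE 0.095) from cells without induction and -0.55 from induced cells, or 68.5% and 68.4%.

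**Figure D1:**
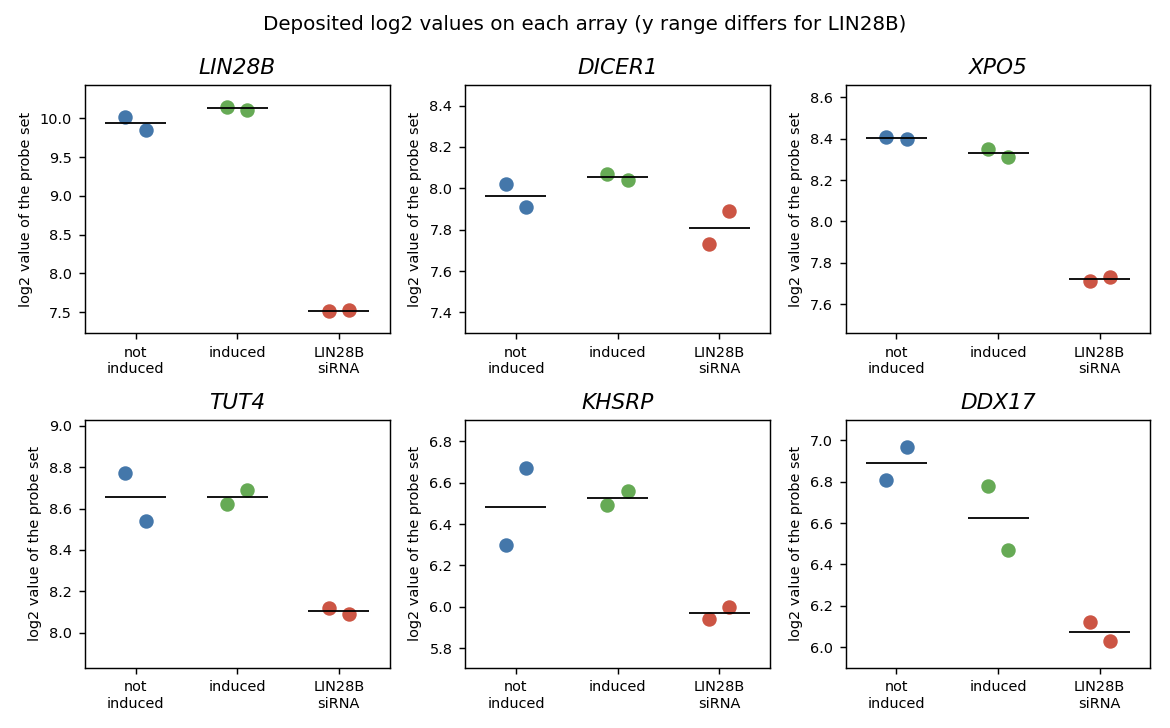
Log2 value of the probe set (y axis) of each chosen gene on each of the 6 arrays, by group (x axis). Points are arrays and the line is the group mean. The knockdown arrays of LIN28B sit at 7.51 and 7.53 against 9.85 or more on the mock arrays, while those of DICER1 come within 0.02 of the lowest mock array without induction.

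All 6 genes had knockdown arrays below both arrays without induction, beside 30.9% of all genes, and below both induced arrays, beside 33.1%. These counts repeat the values that chose the genes, and both use the same knockdown arrays. Of the probe sets, those of XPO5, KHSRP and DDX17 end in _s_at and can pick up related transcripts. Those of KHSRP and DDX17 also read below the lowest array median, 7.13, on all 6 arrays.

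**Figure D2:**
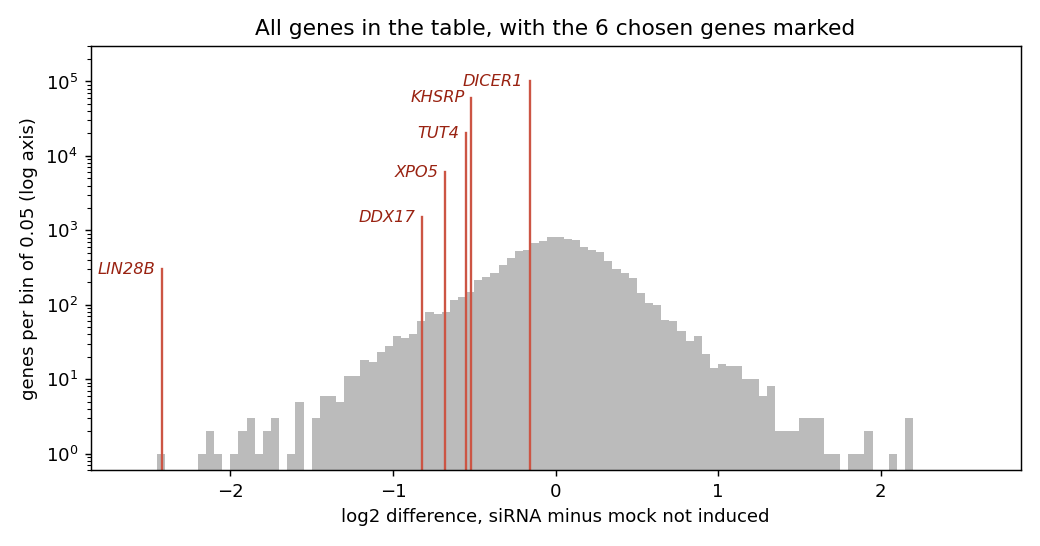
Histogram of the log2 difference between siRNA and mock cells without induction (x axis) over 11584 genes, with the number of genes per bin on a log y axis. Red lines mark the 6 chosen genes and their height has no meaning. LIN28B lies at the far left at -2.42, DDX17, XPO5, TUT4 and KHSRP between -0.82 and -0.52, and DICER1 at -0.16 inside the bulk.

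Between induced and not induced cells, none of the 6 passed. This comparison shares the arrays without induction with the knockdown difference. The genes were chosen with earlier results of these data known, so it is not independent of that choice. Limma called 0 of 11584 genes, or 0%, between induced and not induced cells, and 344 genes had an unadjusted p under 0.05. DICER1 differed by 0.09 (95% interval -0.13 to 0.31), XPO5 by -0.07 (-0.26 to 0.11), KHSRP by 0.04 (-0.29 to 0.37) and DDX17 by -0.27 (-0.58 to 0.05). TUT4 had an interval of -0.21 to 0.21. Each had an adjusted p of 0.999 by limma. DDX17 had the widest mock range of the 6, at 0.50, and its induced value depends on single arrays: it was -0.11 to -0.42 when 1 array was left out.

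Among themselves, XPO5 and TUT4 had the nearest profiles by distance. After each gene was centred on its own mean, the root mean square distance between them over the 6 arrays was 0.092 on the log2 scale. The pairs of LIN28B with the other 5 had distances of 0.888 to 1.092, since its drop was the largest. The correlation over the 6 arrays, which leaves out the size of a drop, ranked the pairs otherwise. It was 0.985 for LIN28B with XPO5, 0.973 for LIN28B with TUT4 and 0.958 for XPO5 with TUT4. Across the whole table, the genes closest to LIN28B were GPAT3, an acyltransferase of triglyceride synthesis, MRPL9 of the mitochondrial ribosome and PTPMT1, a mitochondrial phosphatase, at 0.219, 0.230 and 0.260. Their log2 differences of the knockdown from cells without induction were -2.2, -2.12 and -1.89, so LIN28B was not alone in a drop of this order. The genes closest to XPO5 were IFRD2, the transcription factor YY1 and CACYBP, at 0.024 to 0.030. TUT4 lay closest to AP1AR, the splicing factor gene SRSF11 and MRNIP, at 0.025 to 0.035. KHSRP lay closest to BTBD2, KCTD15 and CTNNBIP1, at 0.028 to 0.038. DDX17 had no neighbour nearer than 0.079, the value for TMEM170B, followed by PTPN2 and POU6F1. DICER1 lay closest to RBM26, ZNF767P and BAG5, at 0.019 to 0.026. These distances and correlations describe 6 arrays and share the group means.

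Promoters are shown for XPO5, KHSRP and DDX17, the members with 1 start window each. The RefSeq table (GRCh38.p14) gives 250 bases before to 50 after a start and covered 5 of the 6 genes. TUT4, which was also lower after siRNA, had no window. The letters CCAAT, the box that NF-Y is known to bind, were searched on both strands and are in capitals, and 34.6% of 35116 windows held them. GGGCGG, the box of SP1, was in 45.0% of windows. The E-box CACGTG, which MYC is known to bind, was in 7.26%. Capitals on the printed strand also mark the reverse complements.
KHSRP, chr19:6424762-6425061, minus strand: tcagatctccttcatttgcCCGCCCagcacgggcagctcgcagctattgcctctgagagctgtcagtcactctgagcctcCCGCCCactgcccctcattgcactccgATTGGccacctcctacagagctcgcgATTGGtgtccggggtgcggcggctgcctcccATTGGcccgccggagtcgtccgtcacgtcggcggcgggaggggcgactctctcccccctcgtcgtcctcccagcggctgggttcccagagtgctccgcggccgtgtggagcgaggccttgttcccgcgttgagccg
XPO5, chr6:43575989-43576288, minus strand: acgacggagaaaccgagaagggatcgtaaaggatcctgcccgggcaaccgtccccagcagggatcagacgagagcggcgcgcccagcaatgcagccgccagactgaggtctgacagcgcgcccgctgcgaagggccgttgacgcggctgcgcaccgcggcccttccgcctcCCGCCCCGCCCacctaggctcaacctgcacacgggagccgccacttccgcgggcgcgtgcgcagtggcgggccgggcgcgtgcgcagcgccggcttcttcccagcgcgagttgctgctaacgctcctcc
DDX17, chr22:38506262-38506561, minus strand: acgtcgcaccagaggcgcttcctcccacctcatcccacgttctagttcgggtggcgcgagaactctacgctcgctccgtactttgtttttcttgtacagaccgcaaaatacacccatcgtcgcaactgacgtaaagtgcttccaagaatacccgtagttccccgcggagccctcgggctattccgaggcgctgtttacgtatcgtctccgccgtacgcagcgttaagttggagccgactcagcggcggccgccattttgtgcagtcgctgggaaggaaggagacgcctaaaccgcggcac

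The KHSRP window held CCAAT 3 times and GGGCGG 2 times. The XPO5 window held GGGCGG 2 times, in copies that overlap, and the DDX17 window held none of these letters. So none of the searched motifs was in all 3 windows, which describes these windows and nothing beyond them.

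Other genes of the pathway were taken from lists by step, which leave out the 6 genes. The lists were chosen with earlier results of these data known, so their shares are a description. Of 101 listed genes, 83 were in the table. In the knockdown against cells without induction, 7 rose, 13 fell and 63 did not pass (adjusted p under 0.05 by limma). That is 24.1% called, beside 28.0% of all genes, of which 13.5% were higher and 14.5% lower. Their median log2 difference was -0.04, and that of all genes was 0.01. The count fell to 7 and 8 without knockdown replicates 1 and 2, to 11 without replicate 1 of the cells not induced, and to 9 without the intensity trend of the variance model, where HNRNPA2B1, SRSF1, SRSF3, SRRT, ERH, ADAR, XPO1, AGO2, HSP90AB1, PARN and LIMD1 lost their calls. DDX5, TARDBP and CNOT6 kept their calls under every alternative tried, and the other 17 lost theirs under at least 1. None of the 83 was called between induced and not induced cells by limma. The probe sets of TARDBP, SRRT, ADAR, RCC1, XPO1, AGO1, HSP90AB1, TUT1, XRN2 and LIMD1 can pick up related transcripts.

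The nuclear step held 7 of the 13 falls. Of 16 genes of the Microprocessor and its cofactors, 7 fell and 2 rose (43.8% and 12.5%, beside 14.5% and 13.5% of all genes), with a median of -0.18 beside 0.01. As this list was chosen with earlier results known, its share of falls was not tested against that of all genes. DDX5, the helicase paralog of DDX17, fell from 10.36 to 9.95 (log2 difference -0.41, SE 0.056, limma adjusted p = 0.000748), and TARDBP, which encodes the RNA-binding protein TDP-43, fell from 10.36 to 9.91 (-0.45, SE 0.055, limma adjusted p = 0.000429). METTL3, which methylates adenosine in RNA, fell by 0.43 and the SR protein gene SRSF1 by 0.38. The RNase gene DROSHA had a difference of -0.14 (limma adjusted p = 0.154) and did not pass. ADAR, HNRNPA2B1 and SRSF3 fell by 0.24, 0.23 and 0.22, and SRRT and ERH rose by 0.28 and 0.15; these 5 were named after their values were seen. SRSF3 had -0.48 when its probe sets were averaged, and it lost its call with arrays centred on their medians (limma adjusted p = 0.0655). Without either knockdown array those 5 lost their calls, with limma adjusted p between 0.0545 and 0.216. With replicate 1 of the cells not induced left out, SRSF3 had -0.12 and lost its call, as did HNRNPA2B1, SRRT and ERH, and with replicate 2 left out so did ADAR (-0.17). SRSF3 and SRRT also lost theirs without either induced array, with limma adjusted p of 0.0516 to 0.0778, and with only the 4 arrays compared. METTL3 lost its call when replicate 1 of the knockdown (-0.29) or of the cells not induced (-0.36) was left out, and SRSF1 without knockdown replicate 2 (-0.29).

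Around nuclear export, 2 of 6 genes fell, or 33.3% beside 14.5% of all genes, and none rose. RCC1, the exchange factor that charges the export GTPase RAN, fell from 7.68 ± 0.14 to 7.08 ± 0.14 (SD, n = 2 each), and XPO1, the exportin of proteins and some RNAs, fell from 7.46 ± 0.04 to 6.99 ± 0.23. RAN, on which XPO5 depends to hold its cargo, had a difference of -0.06 (limma adjusted p = 0.208). RCC1 lost its call without knockdown replicate 2 (-0.50, limma adjusted p = 0.0555). XPO1 lost it without knockdown replicate 1 (-0.31) and without either array of the cells not induced (-0.50 and -0.44). RCC1 read 7.36 ± 0.12 (SD, n = 2) in induced cells, and its difference of the knockdown from those was -0.28 (limma adjusted p = 0.119). Against induced cells, 1 of the 6 export genes fell, or 16.7%, beside 1679 of 11584 genes, and none rose.

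Of the Argonaute genes, whose proteins bind the mature microRNA, 2 of 4 rose in the knockdown, where 13.5% of all genes did. AGO1 rose from 7.82 ± 0.19 (SD, n = 2) to 8.30 on both knockdown arrays. AGO2, the Argonaute that can cut its target, rose from 7.30 ± 0.22 to 7.81 ± 0.19 (SD, n = 2 each), and the log2 differences were 0.48 and 0.51 (limma adjusted p = 0.00814 and 0.0243). AGO3 and AGO4 had 0.15 and 0.18 and did not pass. The DICER1 partners TARBP2 and PRKRA had 0.25 (limma adjusted p = 0.105) and 0.14 (limma adjusted p = 0.166), and did not pass either. Of 11 genes of cytoplasmic processing and loading in all, 2 rose and 1 fell, the chaperone gene HSP90AB1 by 0.24, so that 27.3% were called beside 28.0% of all genes. AGO1 lost its call without either knockdown array (0.48 in both, limma adjusted p = 0.0593 and 0.0542). AGO2 lost it when knockdown replicate 2 (0.38) or replicate 1 of the cells not induced (0.35) was left out, and HSP90AB1 without knockdown replicate 1 (-0.24).

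Among genes of tailing, trimming and turnover, 2 of 13 rose and 1 fell, or 15.4% and 7.69% beside 13.5% and 14.5% of all genes. TUT7, the paralog that shares the tailing of let-7 precursors with TUT4, had a log2 difference of 0.16 (SE 0.13, limma adjusted p = 0.383). DIS3L2, the exonuclease that degrades uridylated let-7 precursors, had 0.41 (SE 0.20, limma adjusted p = 0.157). TUT1, which tails U6 RNA, rose by 0.63 and the deadenylase gene PARN by 0.26, while the nuclear exonuclease gene XRN2 fell by 0.43. TUT1 was also at 5.99 ± 0.09 (SD, n = 2) in induced cells against 5.53 ± 0.29 without induction, and the knockdown differed from induced cells by 0.17 (limma adjusted p = 0.501). Its call was lost without either knockdown array (0.55 and 0.70), with replicate 1 of the cells not induced left out (0.42) and against all 4 mock arrays (0.40). PARN lost its call without any 1 of 5 arrays, all but replicate 1 of the cells not induced (0.18 to 0.33), and with only the 4 arrays compared. XRN2 lost it without either knockdown array (-0.43 in both) and when replicate 1 of the cells not induced was left out (-0.30).

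Of 26 effectors of silencing, which shorten and decap the targeted mRNA, 1 rose and 2 fell, so that 11.5% were called beside 28.0% of all genes. CNOT6, a deadenylase of the CCR4-NOT complex, fell from 8.46 ± 0.02 to 7.57 ± 0.07 (SD, n = 2 each; log2 difference -0.89, limma adjusted p = 0.000136), the largest drop among the 83 genes. Its paralog CNOT6L had -0.24 (limma adjusted p = 0.108). DCP2, the decapping enzyme, rose by 0.55, and LIMD1, an adaptor that links Argonaute to the cap, fell by 0.61. DCP2 lost its call without knockdown replicate 2 (0.48). LIMD1 lost it without knockdown replicate 1 (-0.34) and without either array of the cells not induced (-0.64 and -0.58). The scaffold genes TNRC6A, TNRC6B and TNRC6C had -0.02, 0.04 and 0.28, and did not pass. In the knockdown against induced cells, 2 of the 26 rose and 4 fell. That is 23.1% called, beside 3295 of 11584 genes.

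None of 3 cold shock domain genes and none of 8 microRNA host genes was called by limma, beside 28.0% of all genes. Of the first, CARHSP1 and YBX3 had differences of 0.11 and 0.07. Of the second, DLEU2, which hosts microRNAs of the miR-15 family, had -0.24, and HUWE1, which hosts let-7f-2 in an intron, had 0.18.

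**Figure D3:**
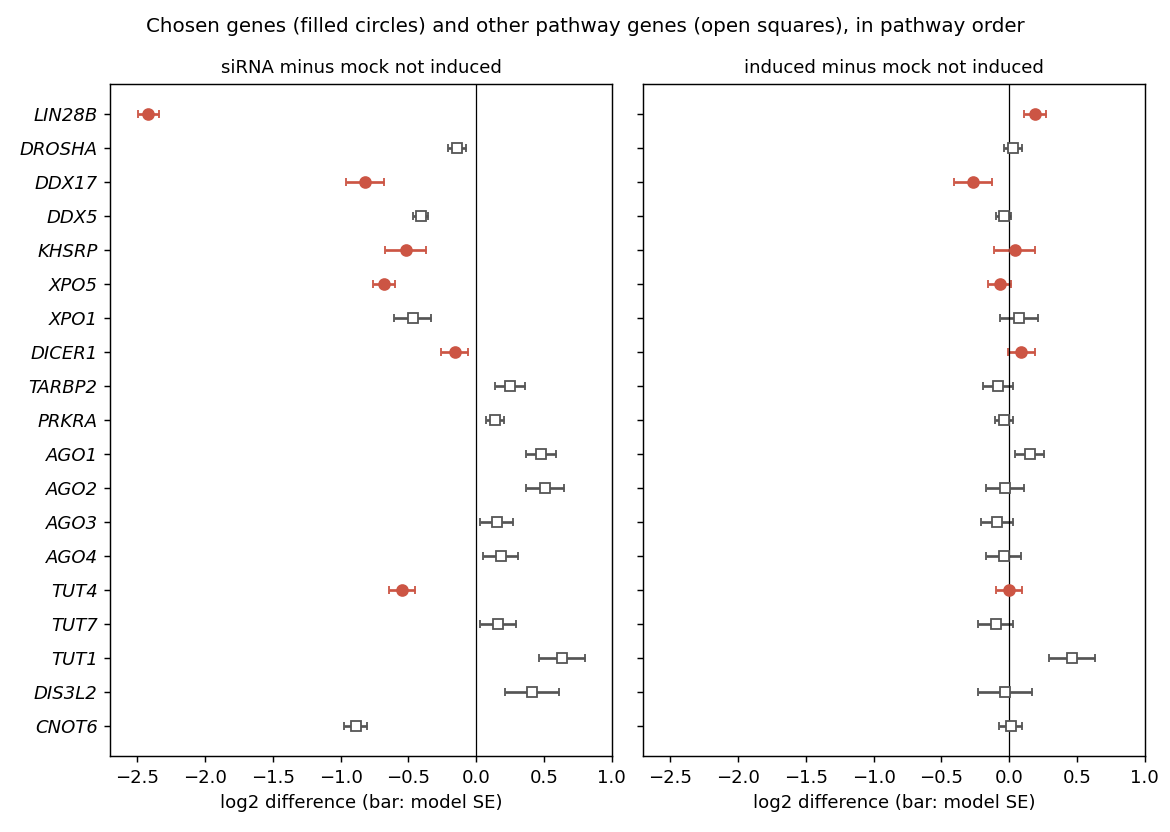
Log2 difference from mock cells without induction (x axis) of siRNA-treated cells on the left and induced cells on the right, for chosen genes (filled circles) and other pathway genes (open squares) in pathway order. Bars are SEs from the model. On the left LIN28B is at -2.42, CNOT6 at -0.89 and DDX17 at -0.82, while AGO1, AGO2 and TUT1 lie at 0.48 to 0.63; on the right no gene passed the test.

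Within the series as a whole, arrays of 1 group correlated at 0.9899 to 0.9937 and knockdown with mock arrays at 0.97 to 0.9745 across probe sets. Of 10 markers typical of HEK293 cells, 8 were in the table and 6 of these lay above 7 on every array, among them VIM and NEFL. Their summed log2 level was 67.8 to 68.4 without induction, 67.6 to 68.1 with induction and 68.4 to 69.2 after siRNA, a sum of shifts in both directions. NEFL read 9.9 and 10.0 after siRNA against 10.5 to 10.6 on the mock arrays. INA read 9.3 and 9.1 against 8.5 to 8.6, LHX1 5.9 and 5.3 against 4.8 to 4.9, and KRT8 8.3 and 8.2 against 7.7 to 8.0. LHX1 was low and lay above 5 only on the knockdown arrays, so it may be in the table only through them. Of fibroblast, blood cell and liver cell markers, 1 each was in the table (COL1A1, HBB and TTR), at 4.9 to 6.3. The part of these shifts in the results was not tested.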

How the data were processed

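Total RNA, 2 µg per sample, was labelled with biotin and hybridised, per the labels' protocols. Each deposited log2 value summarises 1 probe set and was made with affy and GCRMA, per the submitters' processing notes, which give no versions here. Base 2 was taken as what GCRMA returns. How the 13008 probe sets of the table were picked from the array is not stated there. All but 1 lay above 5 on at least 2 arrays, so genes low on every array were not analysed here. Probe sets with 1 symbol (11719) stood for 11584 genes, with symbols updated by identifier to RefSeq (GRCh38.p14), of which 11578 matched. Each of the 6 genes had 1 probe set in this table, so no other probe set of the array could be compared for them. For genes with several, the set of highest mean was used.

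Genes were fitted with limma 3.58.1 in R 4.3.3 (intensity trend, 3 groups, 3 residual degrees of freedom), with two-sided tests and Benjamini-Hochberg adjustment over all genes. A filter above 4 on at least 2 arrays removed 0 genes. The number of arrays limits precision.

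The members and lists were chosen with earlier results of these data known. By rule, the named genes were the 6 genes, the 3 nearest profiles of each, direct partners, and up to 4 called genes per list, or 2 where none was called. Outside that rule, the called genes ADAR, HNRNPA2B1, SRSF3, SRRT and ERH were also named. So were RAN, CNOT6L, DIS3L2, TNRC6A, TNRC6B and TNRC6C, which were not called. Alternatives were scaling, filter, probe set rule, arrays fitted, variance trend, replicate block and leaving out each array.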

Additional observations from a re-analysis of the deposited data

How the results depend on the processing

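Scaling, filter, probe set rule, and fitting only the arrays compared moved no count of called genes by more than 1.5 times. Dropping the filter could change nothing, as it had removed 0 genes. The probe set rule could act directly only on the 130 genes with more than 1 probe set, none of them a chosen gene. The number of genes called ranged from 1664 to 3143 in the knockdown against cells without induction when 1 array was left out, from 1702 to 3951 against induced cells, and from 0 to 1 between induced and not induced cells. There the lone array of a group is assumed to vary like the others. For the other pathway genes the range was 7 to 21, with 9 called without the intensity trend and 28 against all 4 mock arrays. The difference of LIN28B stayed between -2.50 and -2.33 when 1 array was left out and was -2.51 against all 4 mock arrays. The induced difference of TUT4 was -0.0039 with centred arrays and ran from -0.11 to 0.12 when 1 array was left out, and that of KHSRP ran from -0.15 to 0.23. These turned with single arrays of the cells not induced and, for TUT4, with induced replicate 2 (-0.03), and none passed. Same-numbered arrays had deviations that correlated at 0.181, -0.057 and 0.016, so the numbers were not taken as pairs. With the replicate block, 3422 genes were called in the knockdown against cells without induction, 0 on induction and 19 of the other pathway genes, where SRRT lost its call (limma adjusted p = 0.0517).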
